A study of Homo sapiens with 4 samples.

Results

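The HOXB cluster is a run of homeobox genes on chromosome 17, and its 10 members here are HOXB1 to HOXB9 and HOXB13, of 19689 protein-coding genes in the annotation. To understand how accessibility at this locus differed between prostate adenocarcinoma cells and their neuroendocrine-like derivative, all intervals and summits were collected between the outer ends of the members and 50 kb on either side, chr17:48478526-48778750 (hg38, counted from 1). This window of 300 kb held 35 of the 149676 intervals of C4-2B and 45 of the 118728 intervals of C4-2BER. The members were chosen by name and position, not by their values.

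ATAC-seq measures open chromatin as the places where the Tn5 transposase can cut. The samples were 4 bulk libraries of cultured cells, with 2 of C4-2B, a human prostate adenocarcinoma line, and 2 of C4-2BER (C4-2B_Enza_Resist in the labels), a neuroendocrine-like line obtained from C4-2B by prolonged culture with enzalutamide, an inhibitor of androgen signalling. The comparison is of 1 derived line with its parent. Both lines grew in RPMI with serum, and per the methods C4-2BER alone was kept in medium with the drug, so drug exposure and the derived state cannot be told apart. The libraries of a line were merged before peaks were called. There is thus 1 peak list per line, no spread between replicates and no test between lines, and p-values are not given. In bulk libraries, more cells open at a site and more cuts in each open cell cannot be told apart.

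The recovered depth was 30.2 M reads in C4-2B and 25.2 M in C4-2BER, a ratio of 1.20, and the shallower list is C4-2BER. Reads of C4-2BER set beside those of C4-2B are multiplied by this ratio where they are called depth-scaled. The reads an interval is said to hold are those at its strongest summit, not those over its whole width. The labels were compared with promoter intervals of marker genes, and KLK2, KLK3, TMPRSS2 and FOLH1 for adenocarcinoma and all 6 neuroendocrine markers had one in both lists, so presence of an interval does not separate the lines. The rank of the strongest promoter interval was 80.9 in C4-2B against 42.3 in C4-2BER for KLK3, the gene of prostate-specific antigen, and 43.8 and 77.6 for NCAM1, a neural adhesion molecule. A rank here is the percentile of an interval's −log10 p within its own list, with 100 the strongest.

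HOX genes encode homeodomain transcription factors that give cells their position along the head-to-tail axis. Within a cluster, the order of the genes on the chromosome follows the order in which they are used, with HOXB1 acting furthest forward, in the hindbrain, and HOXB9 and HOXB13 furthest back. HOXB13 is known as a lineage factor of prostate epithelium. All 10 genes are transcribed in the same direction, from the HOXB13 side towards HOXB1, and HOXB13 stands apart from HOXB9 by 98.4 kb that hold long non-coding RNAs and the prostate-expressed genes PRAC1 and PRAC2.

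The sites on which the comparison turns are shown as reference sequence of hg38, plus strand, 201 bases centred on a summit, with every CG dinucleotide in capitals. The first is the one strong site called in C4-2B only (chr17:48483848-48484048). It is followed by the site of the lowest read ratio in the window (chr17:48522294-48522494), both between genes beyond HOXB1. The HOXB9 site (chr17:48625853-48626053) and the HOXB13 promoter site (chr17:48729043-48729243) were called in both lines.
Beyond HOXB1, C4-2B only: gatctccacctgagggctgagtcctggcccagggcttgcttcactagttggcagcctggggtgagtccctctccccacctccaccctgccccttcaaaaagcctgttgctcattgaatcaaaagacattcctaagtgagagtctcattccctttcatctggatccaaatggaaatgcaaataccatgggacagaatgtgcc
Beyond HOXB1, shared: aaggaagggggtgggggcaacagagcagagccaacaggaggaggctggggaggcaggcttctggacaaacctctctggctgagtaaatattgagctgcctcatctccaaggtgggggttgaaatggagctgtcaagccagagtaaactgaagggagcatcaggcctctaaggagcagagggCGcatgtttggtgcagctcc
HOXB9, shared: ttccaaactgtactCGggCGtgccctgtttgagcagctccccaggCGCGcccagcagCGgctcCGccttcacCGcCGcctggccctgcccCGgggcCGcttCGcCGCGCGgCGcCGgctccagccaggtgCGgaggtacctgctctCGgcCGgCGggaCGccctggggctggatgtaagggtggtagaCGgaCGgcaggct
HOXB13 promoter, shared: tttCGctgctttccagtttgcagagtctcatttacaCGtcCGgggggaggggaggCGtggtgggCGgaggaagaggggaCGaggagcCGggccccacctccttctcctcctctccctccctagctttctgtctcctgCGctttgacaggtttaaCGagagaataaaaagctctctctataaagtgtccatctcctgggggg
The HOXB9 sequence, in a coding exon, held 23 CG dinucleotides. The HOXB13 promoter sequence held 9. The C4-2B-only sequence held 0 and the site of the lowest read ratio 1, while another shared site beyond HOXB1, printed later for its motif, held 23. This dinucleotide is the main target of DNA methylation.

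C4-2BER had more intervals in the window, and C4-2B had more of those with a −log10 q of at least 10. C4-2B had 35 intervals with 49 summits over 19939 bp, and C4-2BER had 45 intervals with 59 summits over 21297 bp. An interval is called shared when it overlaps one of the other line by at least 1 bp, and line-only otherwise. In C4-2B, 30 intervals were shared and 5 line-only, which is 14.3% line-only (Wilson 95% interval 6.26% to 29.4%) against 37.7% over the whole list. In C4-2BER, 31 were shared and 14 line-only, which is 31.1% (19.5% to 45.7%) against 20.8% over the whole list. The shares lay on opposite sides of those of their lists, and the intervals cover counting error only. Most of the excess was weak, since 26 intervals of C4-2B and 20 of C4-2BER reached a −log10 q of 10, and of these 1 and 2 were line-only, where 22.2% and 7.31% of all intervals of that strength were. Both lists were also cut to a −log10 q of at least 10 before they were compared. Then 9 intervals of C4-2B and 3 of C4-2BER were line-only, among 26 and 20 intervals over 17424 and 13730 bp. The order of the lines thus turned with the threshold on all 3 measures. The whole lists hold 95553 and 63718 intervals at that cut, so C4-2B has more there too. Line-only shares of the whole lists after the cut are not given here.

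**Figure D1:**
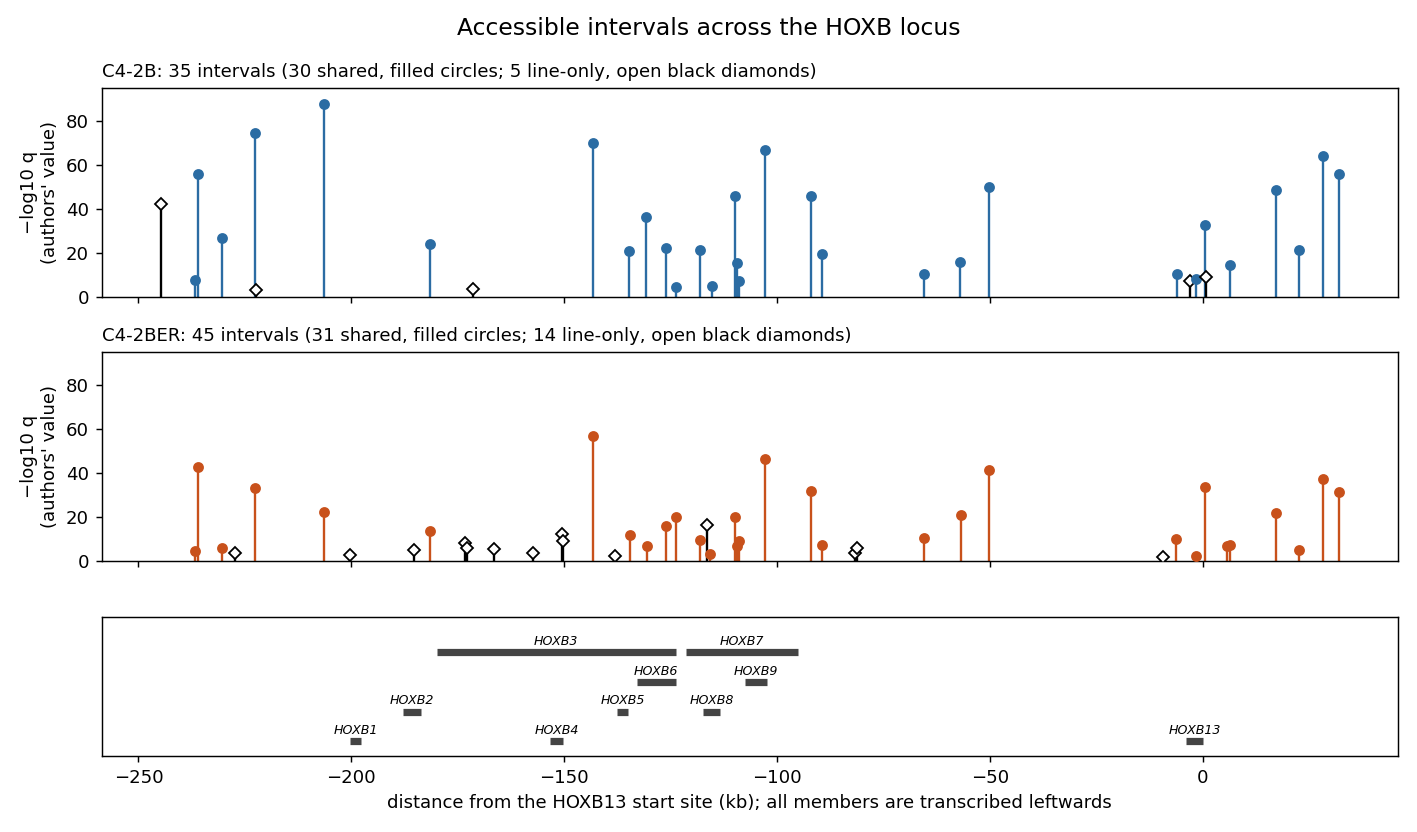
Intervals of the HOXB window in C4-2B (top) and C4-2BER (middle) by distance of the summit from the HOXB13 start site in kb, with height the authors' −log10 q, which is adjusted within each list; filled circles are shared and open diamonds line-only intervals, and the bottom panel gives the members' gene bodies. The 14 line-only intervals of C4-2BER lie mostly within the cluster, and the 3 tallest of C4-2B reach 87.4, 74.4 and 69.7.

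C4-2BER had more intervals in the stretches from HOXB1 to HOXB13. These stretches were drawn after the values were seen. Between the HOXB1 end of the cluster and the HOXB4 start, C4-2B had 2 intervals over 1121 bp and C4-2BER had 7 over 2896 bp, of which 6 were line-only. From HOXB4 to HOXB9 there were 11 intervals over 6739 bp and 14 over 7842 bp, and all 11 of C4-2B were shared while 3 of C4-2BER were line-only. Between HOXB9 and HOXB13 there were 6 and 9, again with all of C4-2B shared and 3 of C4-2BER line-only. The flank beyond HOXB1 had 7 intervals in either line with 2 line-only in each. The HOXB13 gene body went the other way, with 2 intervals over 483 bp in C4-2B, 1 of them line-only, and 1 over 225 bp in C4-2BER. The flank beyond HOXB13 also had 7 in either, over 4912 bp in C4-2B and 3758 bp in C4-2BER.

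The 5 intervals called in C4-2B only were 2 beyond HOXB1, 1 in HOXB3 and 2 at HOXB13. The strongest, chr17:48483475-48484451, is 977 bp wide, held 53 reads with a −log10 q of 41.9, lay 7537 bp from the nearest C4-2BER interval and had rank 79.0. At the others C4-2B held 14 reads (chr17:48506298-48506533), 11 reads (chr17:48557107-48557316), 66 reads (chr17:48725672-48725946) and 62 reads (chr17:48729434-48729660), with −log10 q between 2.91 and 8.91. The last 2 belong to HOXB13, one in its untranslated region and the other upstream of its start and 54 bp from a C4-2BER interval.

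The 14 intervals called in C4-2BER only held between 9 and 60 reads. The strong ones were chr17:48577541-48578265 in the coding sequence of HOXB4, with 36 reads and a −log10 q of 12.4, and chr17:48611752-48612451 in introns of HOXB7 and HOXB8, with 60 reads and a −log10 q of 16.3. A further 4 touched the HOXB4 start or HOXB3 promoters at chr17:48578349-48578607 (31 reads), chr17:48590503-48590714 (26 reads), chr17:48555348-48555598 (22 reads) and chr17:48555674-48556026 (19 reads). One lay in the coding sequence of HOXB2, chr17:48543367-48543712, with 25 reads. Of the others, 2 were in HOXB3 introns with 16 reads each, 2 lay at the HOXB1 end of the window with 16 and 9 reads, 2 in the long non-coding genes LINC02086 and LINC03057 with 14 and 17 reads, and 1 between genes towards HOXB13 with 33 reads. Both strong sites are thus within cluster genes, whereas the strong C4-2B-only site lies outside the cluster.

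Promoters were then read gene by gene, taking 2000 bp on either side of any annotated start. Of the 10 members, 8 had a promoter interval in both lines, HOXB4 had one in C4-2BER only, HOXB1 had none in either and none had one in C4-2B only. Among all protein-coding genes 77.7% had one in both, 3.39% in C4-2BER only and 2.83% in C4-2B only, so the count in both is close to the background. HOXB3 and HOXB8 also had an interval in C4-2BER only with a −log10 q of at least 5 or 10, or with equal numbers of top peaks. This makes 3 such genes. The C4-2B intervals of HOXB3 and HOXB8, of −log10 q 3.62 and 4.89, fall out at these cuts. The share over all genes at these cuts is not given here. The rank of the strongest promoter interval was higher in C4-2BER for 6 of the 9 genes with one and lower for 3, where 39.9% of all genes with a promoter interval had a lower rank. The median difference, C4-2BER minus C4-2B with a missing interval at 0, was 7.33 percentile points for the members and 0.604 for all genes. For the members it was 0.692 when intervals were ranked by fold enrichment and 16.7 with equal numbers of top peaks. The genes do not count separately, since HOXB3 and HOXB4 share their strongest C4-2BER interval, as do HOXB7 and HOXB8. For HOXB3, HOXB6, HOXB7 and HOXB8 the ranks are of different places in each line, and HOXB4 has no C4-2B interval. Where the site was the same, HOXB2, HOXB5 and HOXB9 ranked lower in C4-2BER and HOXB13 ranked higher.

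**Figure D2:**
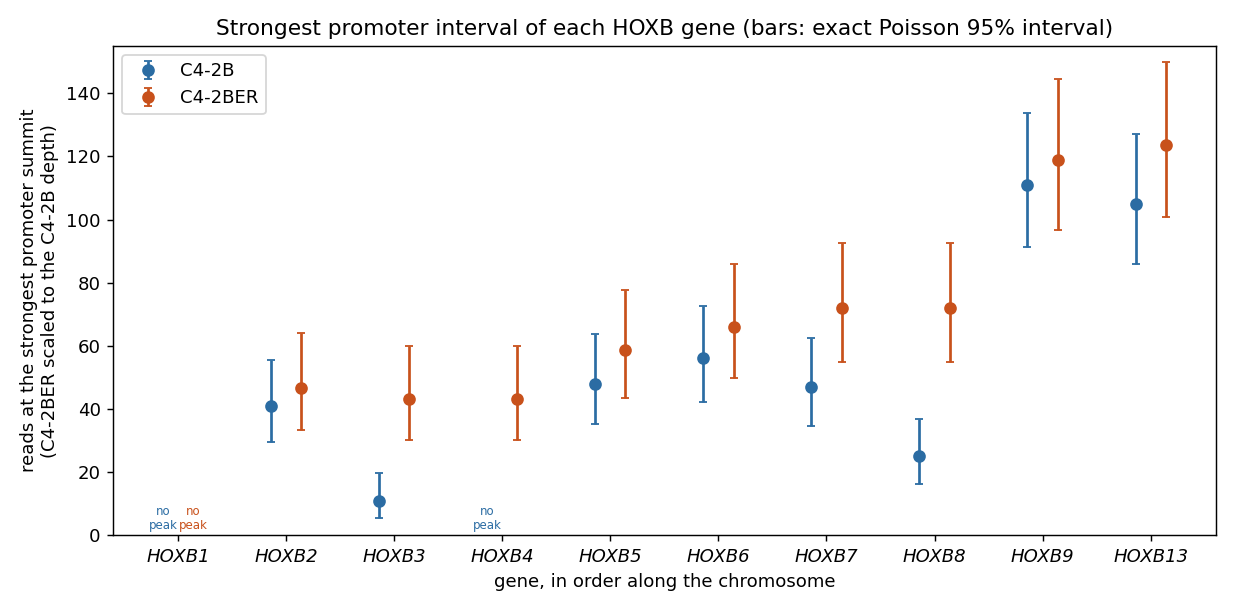
Reads at the summit of the strongest promoter interval of each HOXB gene in C4-2B and, scaled to the C4-2B depth, in C4-2BER, with exact Poisson 95% intervals that cover counting error only. HOXB9 and HOXB13 are highest in both lines, at 111 and 105 reads in C4-2B. HOXB3 and HOXB8 differ most between the lines, and HOXB4 has no C4-2B interval. For HOXB3, HOXB6, HOXB7 and HOXB8 the strongest interval is a different place in each line, so these points do not compare the same site.

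HOXB1 and HOXB2 are the anterior genes and pattern the hindbrain. HOXB1 (chr17:48528526-48531011) had its nearest interval 8265 bp from the start in C4-2B and 2454 bp away in C4-2BER. HOXB2 (chr17:48540894-48545109) had no interval over its start in either line. The shared interval upstream of it, whose near edge lay 1449 bp from the start in C4-2B and 1397 bp in C4-2BER, held 41 and 39 reads, a depth-scaled ratio of 1.14 (exact 95% interval 0.715 to 1.81), with ranks 64.0 and 57.3. The interval holds 1, so a difference in reads at this site was not detectable at this depth.

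HOXB3 and HOXB4 act in the hindbrain and are also known in blood progenitors, and here they were the pair with the clearest gap between the lists. HOXB4 (chr17:48575507-48578350) had its start covered in C4-2BER, where 2 intervals took 984 bp of the promoter. In C4-2B the nearest interval lay 6662 bp from the start. HOXB3 (chr17:48548870-48604912) is the longest of the genes and has 9 annotated starts, which spread over much of the cluster. In C4-2B its promoters had a single interval of 11 reads, −log10 q 3.62 and rank 6.08, and in C4-2BER they had 5, the strongest being the HOXB4 site of 36 reads and rank 53.3. At the canonical HOXB3 start the nearest interval lay 262 bp away in C4-2BER and 3659 bp in C4-2B. An interval missing from a list is one that did not pass the caller's threshold, and reads at uncalled places were not analysed here.

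HOXB5 and HOXB6 lie in the middle of the cluster. HOXB5 (chr17:48591257-48593779) had 1 shared promoter interval with 48 reads in C4-2B against 49 in C4-2BER, a depth-scaled ratio of 1.22 (0.803 to 1.86). Its −log10 q was nevertheless 20.5 in C4-2B against 11.7 in C4-2BER, and the number of reads in the 10 kb around it, from which macs2 takes its local background, was 382 and 667. HOXB6 (chr17:48595751-48604992) had the largest read ratio of any shared site in the window. The interval over its start, chr17:48604886-48605086 in C4-2B, held 21 reads there and 55 in C4-2BER, a depth-scaled ratio of 3.13 (1.86 to 5.46), which is percentile 99.4 of all 91168 shared pairs, and its rank was 11.0 and 68.8. Another HOXB6 site, in an intron, held 56 reads in either line, and its depth-scaled ratio was 1.20 (0.811 to 1.76).

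HOXB7 (chr17:48607232-48633572) and HOXB8 overlap, and the annotated HOXB7 gene reaches past HOXB9. At the canonical HOXB7 start the shared interval held 47 and 46 reads, a depth-scaled ratio of 1.17 (0.763 to 1.80), while its rank was 60.0 in C4-2B against 45.9 in C4-2BER. The strongest promoter interval of C4-2BER for both genes was the C4-2BER-only site of 60 reads and rank 62.3 described above. At HOXB8 (chr17:48611377-48615292) the shared interval held 25 reads in C4-2B against 34 in C4-2BER, a ratio of 1.63 (0.943 to 2.85). Its rank was 12.0 and 6.65. The summits lay 319 bp apart, so these reads are of different places within the interval. Reads at these shared sites thus did not separate beyond counting error, and the higher C4-2BER ranks of the 2 genes rest on the extra site.

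HOXB9 and HOXB13 are the posterior genes and had the most promoter reads in both lines. HOXB9 (chr17:48621156-48626358) held 111 reads in C4-2B against 99 in C4-2BER, a ratio of 1.07 (0.806 to 1.41), with ranks 89.6 and 87.5. The interval was 1271 bp wide in C4-2B and ended 2 bp short of the start, and it was 1768 bp wide in C4-2BER and covered it.

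HOXB13 (chr17:48724763-48728750) was open at its start in both lines at close to equal read counts. The main interval, chr17:48728613-48729361 in C4-2B and chr17:48728619-48729380 in C4-2BER, held 105 and 103 reads, with summits 18 bp apart and a depth-scaled ratio of 1.17 (0.886 to 1.56). Fold enrichment over the local background was 4.32 and 4.60 and −log10 q 32.3 and 33.7. The rank was 72.0 in C4-2B against 81.4 in C4-2BER, so this interval stood higher within the C4-2BER list while its reads did not differ beyond counting error. An intronic interval near the start held 66 and 49 reads, a ratio of 0.888 (0.601 to 1.31), and its rank was 28.5 and 2.89. The higher rank in C4-2BER was thus that of the main interval, and the intronic interval ranked lower there. Intervals took 1184 bp of the HOXB13 promoter in C4-2B and 987 bp in C4-2BER.

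The whole HOXB13 neighbourhood carried many reads. The 10 kb around the promoter summit held 1178 reads in C4-2B against 1081 in C4-2BER, which is 10.5 and 11.6 times the genome-wide floor of each list, and the 99th percentile over all intervals was 12.2 and 13.1 times. The 2 C4-2B-only sites at HOXB13 sat on 1459 and 1179 background reads, and the site at chr17:48725672-48725946 had a fold enrichment of 2.22 despite its 66 reads. PRAC1 and PRAC2, next to HOXB13 and known for expression in prostate, had their shared interval at 68 and 67 reads over 1251 and 1243 background reads. Reads in the HOXB13 neighbourhood were therefore high in both lines, and a site there needs more reads to be called than elsewhere in the window.

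Shared sites allow the same place to be compared in reads. The window had 29 pairs, each made of the strongest overlapping intervals of either line, and 24 had summits within 50 bp. The depth-scaled read ratio, C4-2BER over C4-2B, had a median of 1.07 and ranged from 0.391 to 3.13, while the median over all 91168 pairs was 0.900. It was at most 1/1.5 in 6 pairs (20.7%, against 27.5% of all pairs) and at least 1.5 in 3 (10.3%, against 7.85%). The counting interval lay wholly below 1 in 8 pairs (21.4% of all pairs) and wholly above 1 in 1, the HOXB6 start (5.33% of all pairs). By reads, the shared sites of the window as a whole were thus near the background, and they differed along the locus.

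In the flank beyond HOXB1 the median ratio of 5 pairs was 0.655. Its lowest value, 0.391 (0.254 to 0.588), was at the strongest interval of the C4-2B window, chr17:48522031-48522746, with 98 reads in C4-2B, 32 in C4-2BER and ranks 94.6 and 71.2. The site at chr17:48505733-48506248 held 84 and 46 reads, a ratio of 0.655 (0.447 to 0.950). The site at chr17:48492359-48492988 held 70 and 60, a ratio of 1.03 (0.714 to 1.47), so the flank was not lower throughout. In the flank beyond HOXB13 the median of 6 pairs was 0.692, and 5 of 6 were below 1 (60.2% of all pairs), the exception being the HOXB13 promoter itself. These 5 intergenic sites held 37 to 119 reads in C4-2B against 22 to 70 in C4-2BER, and the counting interval lay wholly below 1 at 4 of them.

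From HOXB4 to HOXB9 the median ratio of 10 pairs was 1.21, and 9 of 10 were above 1 (39.8% of all pairs). The exception was chr17:48597669-48598459 in the coding sequence of HOXB6, with 74 and 41 reads and a ratio of 0.663 (0.441 to 0.984). Among those above 1, the pairs at chr17:48612972-48613497 and chr17:48619064-48619516 had summits 319 and 457 bp apart. The strongest shared site of the segment, chr17:48585012-48586197 in a HOXB3 intron, held 95 and 97 reads, a ratio of 1.22 (0.911 to 1.64), and had the highest −log10 q of C4-2BER in the window, 56.8.

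**Figure D3:**
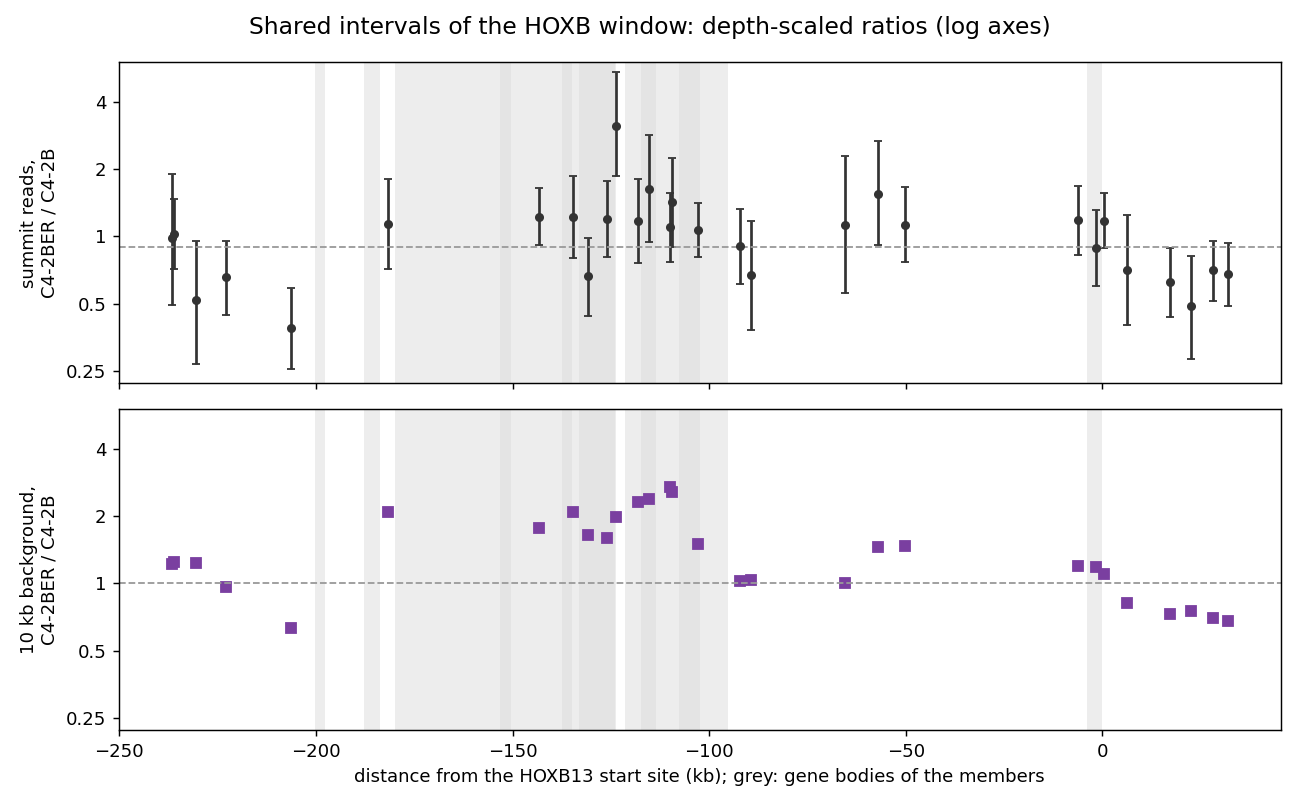
Depth-scaled ratios of C4-2BER to C4-2B at the 29 shared pairs by distance from the HOXB13 start site in kb, on log axes, with summit reads and exact 95% counting intervals above and reads in the surrounding 10 kb below; grey marks gene bodies and dashed lines the medians of all pairs (0.900 and 1.000). Background ratios are 1.5 to 2.68 from HOXB4 to HOXB9 and below 1 at 5 of 6 pairs beyond HOXB13.

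The background showed a clearer pattern than the summits. The number of reads in the 10 kb around a summit includes the interval's own reads and those of its neighbours, and where it fell under the genome-wide floor the floor was used, so its depth-scaled ratio is centred at 1.000 over all pairs. From HOXB4 to HOXB9 the background ratio was at least 1.5 in 10 of 10 pairs, with a median of 2.03 and a range of 1.5 to 2.68. In the whole window 11 of 29 pairs (37.9%) reached 1.5, against 4.74% of all pairs, and the eleventh was the HOXB2 site at 2.09. At the site in HOXB7 with the highest ratio, chr17:48618592-48618953, the 10 kb held 320 reads in C4-2B against 717 in C4-2BER, and the summit 71 and 65. The windows of neighbouring pairs overlap, so the 10 pairs repeat much of the same 48.0 kb and do not count as separate observations.

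Elsewhere in the window the background differed less or lay the other way. Between HOXB9 and HOXB13 the median background ratio was 1.11 in 6 pairs, and at the intronic HOXB13 pair it was 1.18. Beyond the HOXB13 start it was 1.10 at the promoter pair and below 1 in the other 5 of 6 pairs, with a median of 0.739, where 54.8% of all pairs were below 1, some of them at the floor in both lines and so at 1 within rounding. A ratio of at most 1/1.5 was reached by 1 of 29 pairs of the window, at 0.631, and by 11.9% of all pairs, and beyond HOXB1 the ratio ran from 0.631 to 1.25. At these 5 pairs beyond HOXB13 reads were thus lower in C4-2BER both at the summit and in the 10 kb around it. From HOXB4 to HOXB9 the median ratio was 2.03 for the 10 kb and 1.21 for the summits. That stretch also holds 3 intervals called in C4-2BER only, and reads outside intervals were not counted separately.

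The caller scores a summit against its own background, and ranks did not always follow reads. Whether the background set the ranks was not tested. Of the 9 pairs from HOXB4 to HOXB9 with a higher depth-scaled read count in C4-2BER, 6 had a lower rank there (66.7%), where 10.00% of all such pairs did. HOXB5, HOXB7, HOXB8 and HOXB9 are among these 6 sites. In the whole window 7 of 16 such pairs had a lower rank (43.8%). It was 1 of 1 from HOXB1 to HOXB4, 0 of 4 between HOXB9 and HOXB13 and 0 of 1 in each flank. Ranks and −log10 q of HOXB genes are therefore not a stand-in for reads at this locus.

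The other HOX clusters, taken in windows built the same way, were the most alike loci. The median background ratio was 2.75 in HOXA (14 pairs), 1.49 in HOXC (20 pairs) and 1.69 in HOXD (11 pairs), against 1.23 in HOXB, and 13, 10 and 7 pairs reached 1.5. Median read ratios were 1.69, 1.33 and 1.34, against 1.07 in HOXB. HOXB had the lowest median of the 4 on both measures, taken over windows that include the flanks. Its stretch from HOXB4 to HOXB9 alone had medians of 2.03 for background and 1.21 for reads. Medians of the clusters without their flanks are not given here. The lowest background ratio of HOXB was 0.631, against 1.25, 1.000 and 1.19 in HOXA, HOXC and HOXD. All 7 HOXB values below 1 lay in the flanks. The C4-2BER-only share was 44.4% in HOXA, 39.4% in HOXC and 40.9% in HOXD, against 31.1% in HOXB, with Wilson intervals that overlap. These differences between clusters were not tested.

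**Figure D4:**
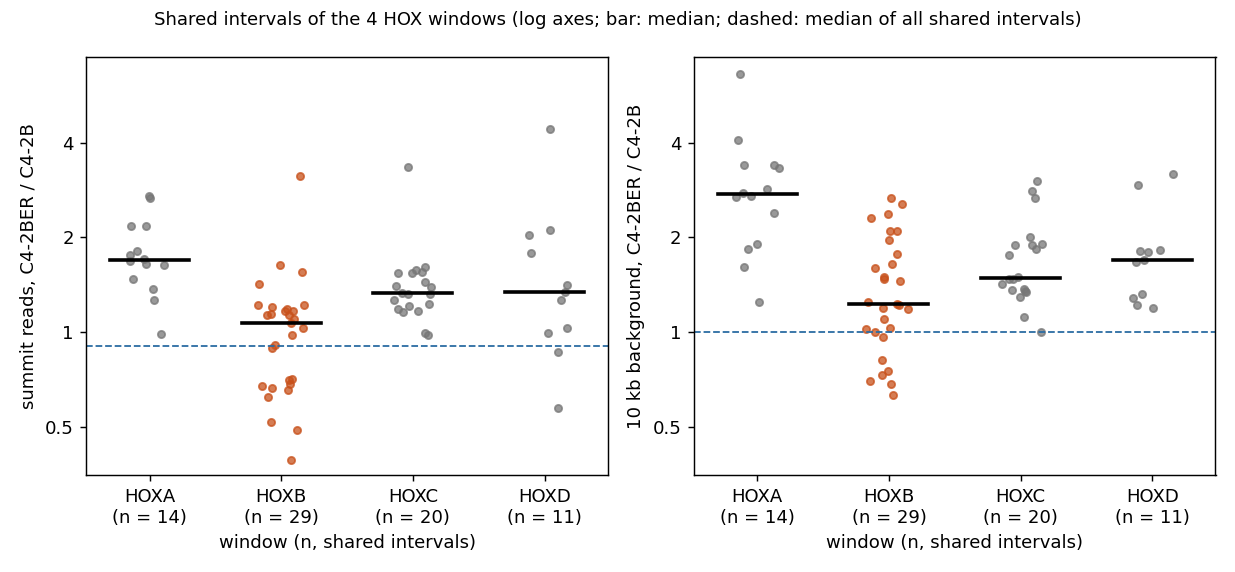
Depth-scaled ratios of C4-2BER to C4-2B at the shared pairs of the 4 HOX windows, summit reads on the left and 10 kb background on the right, on log axes; each point is a pair, bars are medians and dashed lines the medians of all pairs. The HOXB medians are 1.07 and 1.23, read ratios fall on both sides of 1 in every window, and the lowest background ratio of HOXB is 0.631.

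Promoter states in the other clusters were alike in kind. HOXA had 8 of 11 genes open in both lines, and the others were HOXA6 with no promoter interval and HOXA2 and HOXA5 with one in C4-2B and in C4-2BER, respectively. HOXC had 9 of 9 in both, and HOXD had 5 of 9 in both, with HOXD3 and HOXD9 in C4-2BER only. The median rank difference was 2.17, 5.58 and 24.0 points, against 7.33 in HOXB.

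All 9 cofactor genes of the PBX, MEIS and PKNOX families, which bind DNA together with HOX proteins, had a promoter interval in both lines, where 77.7% of all protein-coding genes did, and their median rank difference was 0.159.

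Of 18 non-coding genes in the window, 9 had a promoter interval in both lines, 7 in neither and 2 in C4-2BER only, where 28.2%, 61.6% and 3.59% of all 42630 non-coding genes did. Many of the 18 share an interval with a neighbour. These 2 were MIR10A, the gene of a microRNA that lies between HOXB4 and HOXB5, and HOXB-AS4, an antisense RNA beside HOXB9, which the wider HOXB9 interval of C4-2BER reaches. The MIR10A promoter was reached by 2 C4-2BER intervals, both described above at HOXB4. The protein-coding neighbours PRAC1, PRAC2 and TTLL6 were open in both lines.

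Base composition and motifs were read in the 201 bases around each strongest summit. The mean number of CG dinucleotides was 8.86 in the 35 intervals of C4-2B and 10.2 in the 45 of C4-2BER, against 4.81 and 5.86 over the whole lists. The 14 C4-2BER-only intervals had a mean of 11.1 and the 5 C4-2B-only intervals 3.80, a comparison chosen after the data were seen and resting on few intervals. Mean GC content was 56.8% and 59.2%, against 50.1% and 51.9%. The window is thus richer in CG than the lists, more so at the sites called in C4-2BER only.

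Motif letters were searched on both strands. The HOXB13-type word CCAATAAA occurred in 0 of 35 and 0 of 45 intervals, against 1.42% and 1.32% of all. The homeobox core TAATTA occurred in 1 in each line (3.28% and 3.22% of all), and TGATTNAT, a joint word of PBX and HOX, in 0 and 1 (2.53% and 2.55%). The forkhead word TGTTTAC occurred in 0 and 0 (9.79% and 7.48%). The words TAATTA and TGATTNAT can overlap. The counts are few, and a missing word says only that these letters are not in these bases.

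The CTCF core, a longer motif named for the factor that marks boundaries of chromatin domains, matched in 2 intervals in each line (3.75% and 4.87% of all), and these are the same places. They are shown with the match in capitals, since CTCF sites are known to divide HOX clusters. One lies in an intron of HOXB7 (chr17:48618671-48618871) and the other in an intron of LINC02086 between HOXB9 and HOXB13 (chr17:48663255-48663455). The shared interval with the homeobox core beyond HOXB1 (chr17:48492614-48492814) follows, also with the match in capitals.
CTCF core, HOXB7 intron: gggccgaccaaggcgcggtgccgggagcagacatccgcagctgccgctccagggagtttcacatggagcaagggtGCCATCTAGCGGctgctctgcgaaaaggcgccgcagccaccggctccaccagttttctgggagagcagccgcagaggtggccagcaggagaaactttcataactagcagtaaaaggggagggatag
CTCF core, LINC02086 intron: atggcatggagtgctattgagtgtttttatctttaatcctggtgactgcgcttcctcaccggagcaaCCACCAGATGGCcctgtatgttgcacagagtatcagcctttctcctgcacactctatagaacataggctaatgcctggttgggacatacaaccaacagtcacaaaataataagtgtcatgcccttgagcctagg
Homeobox core, beyond HOXB1: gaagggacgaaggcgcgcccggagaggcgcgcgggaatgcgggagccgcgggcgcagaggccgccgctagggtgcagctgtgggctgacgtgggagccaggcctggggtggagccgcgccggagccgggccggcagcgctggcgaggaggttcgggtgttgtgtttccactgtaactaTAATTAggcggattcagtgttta
At the HOXB7 site C4-2B held 71 reads and C4-2BER 65, a ratio of 1.10 (0.770 to 1.56), and at the LINC02086 site they held 19 and 18, a ratio of 1.13 (0.561 to 2.28). Neither site differed in reads beyond counting error. The background ratio was 2.68 at the HOXB7 site and 1.00 at the LINC02086 site, where both lines were close to the genome-wide floor.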

How the data were processed

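The members, gene lists and motifs were chosen with earlier results of these data known, and the stretches between genes, the ratio counts and the CG counts after the values were seen. Per the study's methods, paired reads were trimmed with cutadapt, aligned to hg38 by Bowtie2, kept at a mapping quality of at least 10 and stripped of duplicates with Picard. The libraries of a line were merged, and macs2 called peaks without a model, with a shift printed as 100 and an extension of 200 bp. Its version is not given in the sources used here. The deposited values are the authors' fold enrichment, a ratio of reads to local background, their −log10 p-value and −log10 q-value, and the summit position within each interval.

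From fold and −log10 p, whole reads and the background of each summit were solved (100% of summits, largest error 0.000251 and 0.000259 in −log10 p, tested on simulated data). The lowest background, 2.24 and 1.87 reads per 200 bp, gives depths that assume a genome of 2700000000 bp, while their ratio does not. Summits sharing an interval were joined. The annotation was GENCODE 44. Read ratios carry exact conditional 95% intervals and shares Wilson intervals, for counting error only. Named were all members, strong line-only intervals, the 3 strongest intervals per line and other genes of the window by group. Sequences came from the hg38 reference, and 1 that touches an untranslated region is not printed. Certain listed genes, 1 motif and 1 further sequence were left out of the text. Python 3.11.15, pandas 2.3.3 and scipy 1.17.1 were used.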

Additional observations from a re-analysis of the deposited data

How the results depend on the processing

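No paired analysis was possible because each line's libraries had been pooled into a single peak list, and for that reason no replicate could be left out either. Of 96 values over 12 results and 16 settings, 65 stayed within 1.5 times of the reported value and 31 moved. Most are counts, which have no sign, and the median rank difference stayed above 0. With the top 50000 peaks of each list, the window held 15 intervals in C4-2B against 16 in C4-2BER over 11437 and 11589 bp, with 3 and 4 line-only, and 2 and 5 genes had a promoter interval. At a −log10 q of at least 10, C4-2BER had 20 intervals over 13730 bp and C4-2B had 26 over 17424 bp. There were 9 line-only intervals in C4-2B against 3 in C4-2BER. By count, C4-2B thus had more line-only sites, intervals and covered length at this cut, where C4-2BER had more before it. Line-only shares of the whole lists after this cut are not given here, so an excess over the lists cannot be judged from these counts. The whole lists hold 95553 intervals in C4-2B and 63718 in C4-2BER at that cut. At 5 there were 9 C4-2BER-only intervals. Counting all intervals as possible partners but only strong ones as line-only left 1 of 26 in C4-2B and 2 of 20 in C4-2BER. Over the whole lists 22.2% and 7.31% of strong intervals were line-only by this rule. Without the flanks C4-2B had 22 intervals over 12084 bp with 2 line-only. Equal numbers of top peaks gave 3 line-only intervals in C4-2B, as did counting a gap of up to 500 bp as shared.

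Genes with a promoter interval in C4-2BER only numbered 3 at a −log10 q of 5 or 10, with equal numbers of top peaks (HOXB3, HOXB4 and HOXB8) and with the top 50000 peaks (HOXB6, HOXB7 and HOXB8). They numbered 2 with promoters of 500 bp or with 1 canonical start per gene (HOXB3 and HOXB4). The shares over all genes at these settings are not given here. The median rank difference was 2.22 at a −log10 q of 10, 16.7 with equal numbers, 3.62 with 500 bp, 2.30 with 1 start per gene and 0.692 when intervals were ranked by fold enrichment. The causes of these shifts were not tested. Sites under the caller's threshold are not in the lists, reads at a summit were at least 8 in C4-2B and at least 7 in C4-2BER, and a line-only site of few reads can be a site just missed in the other line.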
